A study of Mus musculus with 6 samples.

Results

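The genes of 9 cytoplasmic tyrosine kinases were followed in Lpin2 knockout (KO) macrophages and their wild type (WT): Src, Fgr, Fyn, Yes1, Lyn and Lck of the SRC family, their inhibitory kinase Csk, and the kinases Syk and Btk. They were found by the gene symbols that annotate the array, and 7 of the 9 had a probe set, 1 each, among 19505 named genes. No probe set here carried the symbol Lyn or Lck, and these genes were not analysed. The cells were RAW-D, a mouse macrophage line derived from RAW264.7 that readily yields osteoclasts. Total RNA was measured on 6 mouse Clariom S arrays, each for a single culture: WT cells, KO clone #1 and KO clone #2, all either untreated or given 200 ng/mL of LPS for 4 h. LPS, from the outer membrane of Gram-negative bacteria, is sensed by TLR4. The KO cells are 2 clones made with CRISPR/Cas9 plasmids, selected in puromycin and grown from isolated cells. The sources used here do not say whether the WT cells passed through these steps, so the knockout and the cloning cannot be told apart.

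In macrophages, SRC family kinases sit at the inner face of the membrane and phosphorylate the tyrosine motifs of Fc receptors, C-type lectins and the adaptors DAP12 and FcRγ. SYK binds the phosphorylated motifs and passes the signal to adaptors, phospholipase C, BTK and the CARD9-BCL10-MALT1 complex, which activates NF-κB. CSK holds the SRC family in check by phosphorylating a tyrosine near the end of each kinase. In mice, SRC is needed for osteoclasts to resorb bone.

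The promoters of the 4 kinase genes that passed the test in a comparison of treated cells are shown first, as NF-κB is the transcription factor family that LPS signaling is best known to activate. Each sequence is from RefSeq (build GRCm38.p6) and runs from 250 bases before to 50 bases after the annotated start. Capitals mark the matches of an NF-κB pattern (GGG, any 5 bases, CC), read on both strands, where overlapping matches run together.
Src, chr2:157424043-157424342, plus strand: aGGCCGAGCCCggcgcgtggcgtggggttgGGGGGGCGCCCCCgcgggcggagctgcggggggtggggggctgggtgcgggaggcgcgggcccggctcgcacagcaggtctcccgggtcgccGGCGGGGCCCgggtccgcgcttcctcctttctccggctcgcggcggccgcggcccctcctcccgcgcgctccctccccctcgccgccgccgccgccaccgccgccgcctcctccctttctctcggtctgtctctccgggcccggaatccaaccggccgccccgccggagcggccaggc
Fgr, chr4:132973845-132974144, plus strand: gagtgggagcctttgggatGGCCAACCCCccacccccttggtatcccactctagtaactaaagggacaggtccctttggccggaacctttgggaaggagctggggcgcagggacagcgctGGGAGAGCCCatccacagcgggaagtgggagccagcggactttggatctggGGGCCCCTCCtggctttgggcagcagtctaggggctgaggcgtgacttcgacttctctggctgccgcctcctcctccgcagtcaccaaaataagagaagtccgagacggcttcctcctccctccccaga
Syk, chr13:52583187-52583486, plus strand: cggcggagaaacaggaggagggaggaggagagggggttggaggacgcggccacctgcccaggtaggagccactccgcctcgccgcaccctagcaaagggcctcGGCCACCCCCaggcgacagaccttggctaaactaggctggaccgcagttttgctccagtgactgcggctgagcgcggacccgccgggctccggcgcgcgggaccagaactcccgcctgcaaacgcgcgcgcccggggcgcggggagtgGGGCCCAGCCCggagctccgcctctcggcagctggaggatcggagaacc
Csk, chr9:57645604-57645903, minus strand: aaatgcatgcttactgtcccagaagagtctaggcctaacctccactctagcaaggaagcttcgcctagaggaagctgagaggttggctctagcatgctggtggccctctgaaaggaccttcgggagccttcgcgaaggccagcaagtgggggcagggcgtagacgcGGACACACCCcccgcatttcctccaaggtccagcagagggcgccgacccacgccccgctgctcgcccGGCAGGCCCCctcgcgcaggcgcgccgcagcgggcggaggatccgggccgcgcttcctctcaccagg
The pattern matched 6 times in the Src promoter, several of them overlapping, 3 times in that of Fgr, 3 times in the first promoter of Syk and 2 times in the second of Csk. The second Syk promoter and the first Csk promoter held 0 matches and are not printed, so the choice between the starts followed the matches. The pattern is loose, and 50.8% of 32851 mouse promoters of the same length held it. Its fixed letters are G and C, and that share was not matched for GC content. The printed windows of Src, Fgr, Syk and Csk were 82.3%, 62.7%, 72% and 66.3% G and C. The windows without a match were 48% (second of Syk), 49.3% (Btk) and 56% (first of Csk). Among the kinases whose promoters are not printed, Fyn had 4 matches, Yes1 had 2 and Btk had 0. The interferon pattern (GAAA, any 2 bases, GAAA; in 3.44% of all promoters), the STAT pattern TTCNNNGAA (8.3%) and the AP-1 pattern TGANTCA (7.81%) did not occur in these windows of any of the 7 genes. All were read on both strands, and a match describes letters and not a bound site.

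The deposited values are log2 signals after RMA, a background correction, quantile normalization and probe summary. Groups were compared with limma, and a gene was called at a Benjamini-Hochberg adjusted p under 0.05 over all genes. Each treatment has 1 WT array and 2 KO arrays, so the error rests on how far the clones differed, and a WT culture is taken to vary as they do. Nothing says that clones were cultured repeatedly, and p-values measure only the spread between these samples. For a single gene, p = 0.333 is the smallest that exact permutation of 1 array against 2 allows. A signal was called dim where it did not exceed 95% of its array's negative control probes (a level of 9.12 to 9.45), which from 28.7% to 31.4% of genes exceeded. Against a group that was dim on all its arrays a fold is written as at least N-fold, computed from that level, beside the adjusted p of the measured difference. Lpin2 itself was dim on the 6 arrays, which therefore do not check the genotype. Its signals of 7.97 and 8.42 in the untreated and 7.52 and 7.98 in the treated clones lay above those of 7.21 and 6.84 in WT cells, opposite to what a loss of mRNA would give. Of 9 macrophage markers measured, 7 exceeded that level on at least 1 array and Mertk and Cd86 did not. None of 8 T cell, 5 B cell, 6 neutrophil or 4 fibroblast markers did.

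Few genes separated the WT arrays: 144 of 19505 genes differed by over 2-fold between the WT arrays, against 2337 in the KO cells. Acod1, an enzyme gene induced by LPS, had signals of 11.97 in untreated and 14.90 in treated WT cells, and 8.92 and 8.88 in untreated and 17.74 and 17.84 in treated clones #1 and #2. The chemokine gene Cxcl2 had signals of 11.05 and 13.53 in WT cells, against 5.87 and 5.996 in untreated and 17.65 and 17.71 in treated clones. Both genes, chosen after their values were seen, were thus higher with LPS in WT cells and in both clones, but from a higher start and to a lower level in WT cells. The label of the untreated WT array also names another level of probe summary than the other 5. Whether the WT cultures match their treatment labels, and whether the summary differed, was not tested, and every comparison with WT cells rests on these 2 arrays.

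With LPS, Src, Fgr and Syk were higher in KO cells than in WT cells, and Fyn, Yes1, Btk and Csk passed no test. The 3 genes called higher, of 7, compare with 4.62% of all genes called higher, and 0 were called lower, against 6.66% of all genes. The Syk difference ranked 707 from the highest of 19505, and no rank is given for Src and Fgr, which were dim in WT cells. The median difference was 0.08 over the 7 kinases and 0.00 over all genes. As each array holds the RNA of a whole culture, more RNA per cell and more cells with the RNA cannot be told apart.

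Src, the founding member of its family, was seen above background in treated KO cells alone. On the untreated arrays of WT cells, clone #1 and clone #2, its log2 signal was 7.54, 5.32 and 5.87, and on the LPS arrays, in the same order, 7.54, 12.64 and 12.54. Only the 2 KO arrays with LPS exceeded the negative control probes, and the other 4 were dim. The difference between KO and WT cells with LPS was 5.04 on the log2 scale (SE 0.27, 95% CI 4.38 to 5.71, adjusted p = 0.000809), with the dim WT signal taken as measured, and at least 11.1-fold against background. Within the KO cells LPS raised Src by 6.99 (SE 0.22, adjusted p = 0.000118), or at least 9.15-fold, with measured differences of 7.32 in clone #1 and 6.66 in clone #2 that start from dim signals. In WT cells the same difference was 0.00 (95% CI -0.77 to 0.77, adjusted p = 1.00), between dim signals. Untreated KO cells had a lower Src signal than untreated WT cells (difference -1.95, SE 0.27, adjusted p = 0.0223), but both were dim, so no fold is given. Without the untreated array of clone #1 that adjusted p was 0.0708.

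Fgr, an SRC family kinase of myeloid cells that acts in Fc receptor and integrin signaling, showed a like order of arrays at its top end. Log2 signals of 8.42, 9.67 and 9.49 were measured in untreated WT cells, clone #1 and clone #2, and of 8.90, 13.04 and 13.06 after LPS. It was dim on both WT arrays and exceeded the negative control probes on the 4 KO arrays, narrowly so without LPS. With LPS, KO cells were 4.15 above WT cells (SE 0.19, 95% CI 3.68 to 4.63, adjusted p = 0.000606), at least 15.3-fold. Untreated, the difference was 1.16 (SE 0.19, adjusted p = 0.0361), at least 1.29-fold, and it was not called without the untreated array of clone #1 (adjusted p = 0.145) or of clone #2 (adjusted p = 0.135). LPS raised Fgr 11.1-fold in KO cells (3.47, SE 0.16, adjusted p = 0.000234), by 3.38 in clone #1 and 3.57 in clone #2. The difference of 0.47 between the dim signals of WT cells (95% CI -0.07 to 1.02) did not pass the test (adjusted p = 1.00).

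**Figure D1:**
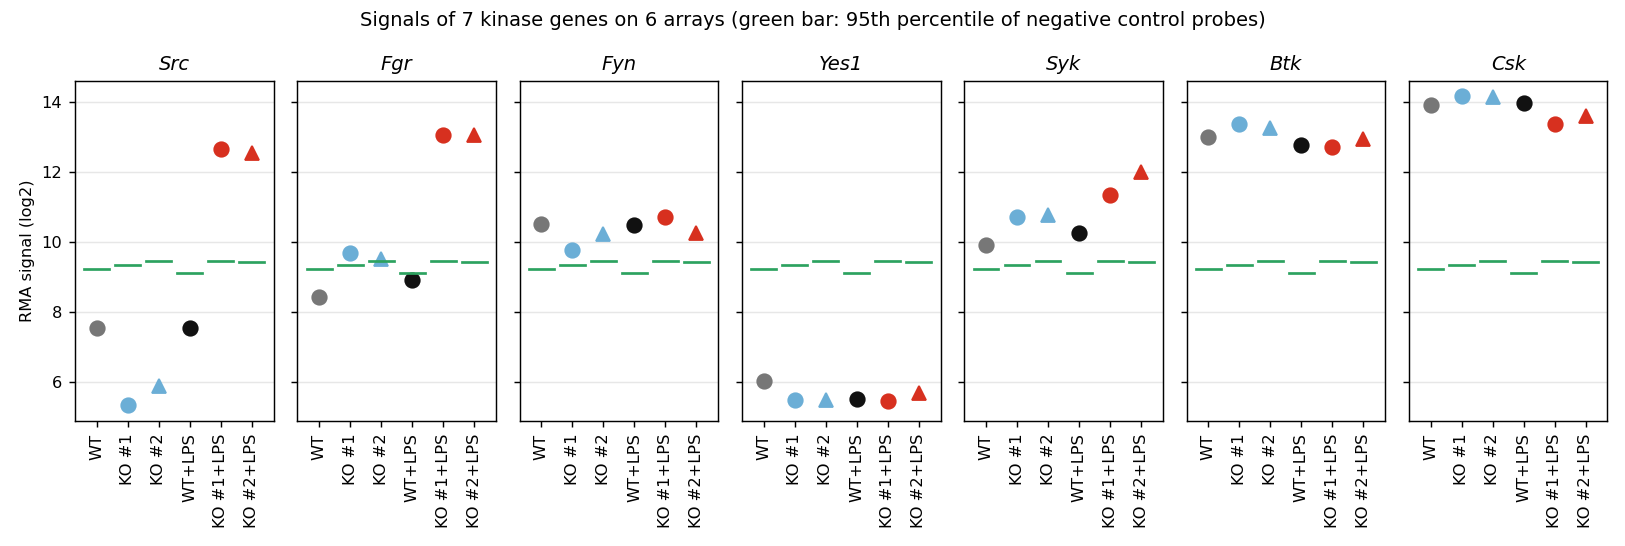
Log2 RMA signals (y axis) of the 7 measured kinase genes on each of the 6 arrays (x axis), with circles for WT cells and clone #1, triangles for clone #2, and green bars at the level that 95% of each array's negative control probes did not exceed. Src and Fgr stand at 12.54 to 13.06 on the KO arrays with LPS, and Src lies under the bars on the other 4 arrays. Levels of different genes should not be compared, as their probes differ.

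Fyn, a broadly expressed member of the family, did not follow Src and Fgr, and Yes1 was too dim to tell. Fyn had log2 signals of 10.51, 9.76 and 10.23 in WT cells, clone #1 and clone #2 before treatment, and of 10.49, 10.72 and 10.26 after LPS. WT and KO arrays overlapped with LPS, where the difference was 0.00 (95% CI -0.73 to 0.73, adjusted p = 0.999). The clones themselves differed in their response, by 0.96 in clone #1 and 0.03 in clone #2, and the mean of 0.49 was not called (adjusted p = 0.266). Yes1 was dim on all 6 arrays, with signals between 5.44 and 6.02, and its level could not be compared.

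Csk, the kinase that restrains the SRC family, moved little. The untreated WT, clone #1 and clone #2 arrays gave log2 signals of 13.90, 14.15 and 14.14, and their LPS counterparts gave 13.95, 13.36 and 13.59. Both treated clones lay under the 4 other arrays. In KO cells Csk fell by 0.67 with LPS (SE 0.16, adjusted p = 0.0439), which is 1.59-fold lower. This call is marginal: it was lost without any 1 of the 4 KO arrays (adjusted p from 0.0527 to 0.181) and with arrays centred on their medians (adjusted p = 0.0534). Against WT cells with LPS the difference of -0.47 (95% CI -0.96 to 0.02) was not called (adjusted p = 0.223).

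Syk, which reads the tyrosine motifs that the SRC family phosphorylates, was highest in treated clone #2. Without LPS, the log2 signal was 9.92 in WT cells, 10.70 in clone #1 and 10.75 in clone #2, and with LPS it was 10.25, 11.34 and 11.99, respectively. All 4 KO arrays exceeded both WT arrays, and all 6 exceeded the negative control probes. With LPS, Syk was 2.66-fold higher in KO cells (1.41, SE 0.29, 95% CI 0.69 to 2.14, adjusted p = 0.0345), with 1.09 in clone #1 and 1.73 in clone #2. The call was lost (adjusted p = 0.0799) without the untreated array of clone #1, without that of clone #2, or with the 3 treated arrays alone, settings that leave the difference itself as it is. Untreated, the difference of 0.81 (SE 0.29, 95% CI 0.08 to 1.53) was not called (adjusted p = 0.206). Within KO cells the difference with LPS was 0.94 (SE 0.24, adjusted p = 0.0501), just over the threshold. It passed under 7 of 10 alternatives, among them the clone as a replicate block (adjusted p = 0.0218) and an intensity trend (adjusted p = 0.0356).

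Btk, a TEC family kinase that acts on phospholipase C in B cells and myeloid cells, gave log2 signals of 12.99, 13.36 and 13.24 before treatment in WT cells, clone #1 and clone #2, and of 12.75, 12.71 and 12.94 after LPS. The WT array lay between the clones with LPS. No comparison called it: the difference between KO and WT cells was 0.08 with LPS (95% CI -0.43 to 0.58, adjusted p = 0.877) and 0.30 without (adjusted p = 0.494), and LPS shifted it by -0.47 in KO cells (adjusted p = 0.130). With LPS, the intervals of Btk, Csk and Fyn held no 2-fold difference between KO and WT cells.

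**Figure D2:**
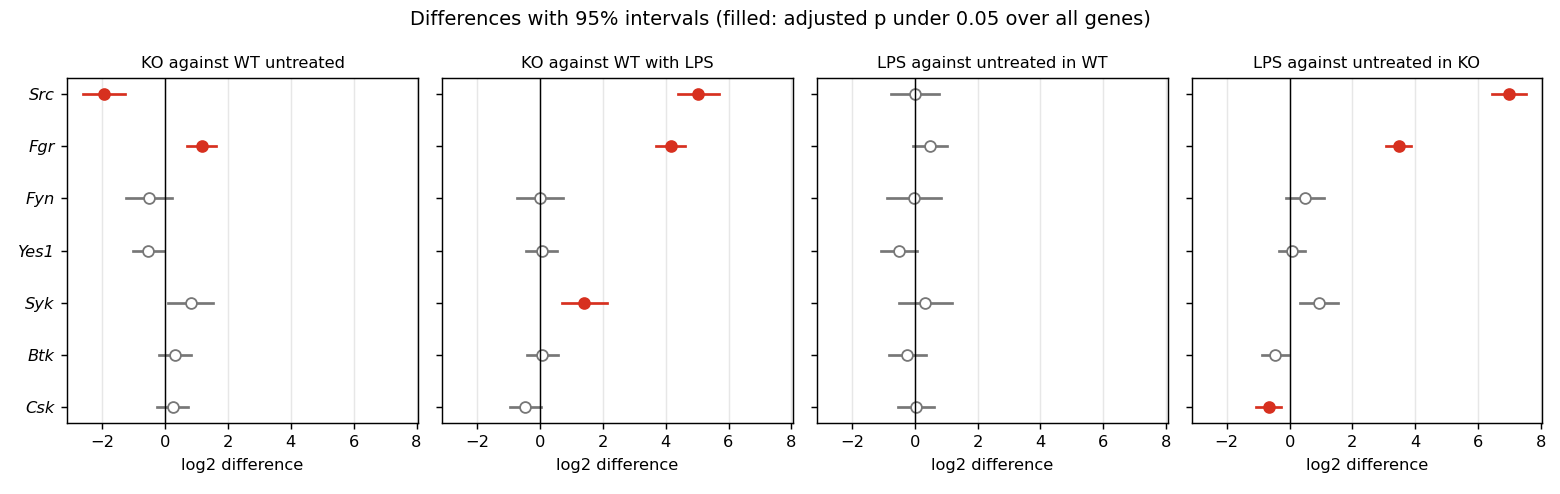
Log2 differences (x axis) of the 7 kinase genes with 95% intervals from limma, in 4 comparisons; filled red points passed an adjusted p of 0.05 over all genes. Src and Fgr are called in 3 of the comparisons, while no kinase is called for LPS in WT cells. Src untreated rests on dim signals.

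Before treatment, 1 kinase gene was called higher in KO cells (Fgr; 2.16% of all genes) and 1 lower (Src, dim; 2.14%). LPS in KO cells raised 2 of 7 (Src and Fgr) against 6.84% of all genes, and lowered 1 (Csk) against 9.8%. In WT cells, 0 kinase genes and 0% of all genes were called by limma, and with an intensity trend limma called 1 gene in all. There were 658 of 19505 genes with an unadjusted p under 0.05, and none of the 144 genes over 2-fold (0.738% of all) was one of these kinases. Among the kinases above background in WT cells, the differences with LPS were -0.24 for Btk, -0.03 for Fyn, 0.05 for Csk and 0.33 for Syk.

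The responses of the genotypes were then compared directly. The response of Src was larger in KO than in WT cells by 6.99 (SE 0.38, adjusted p = 0.00347) and that of Fgr by 2.998 (SE 0.27, adjusted p = 0.00906). These are differences of the signals as measured, and their sizes are uncertain, since Src was dim in all groups but the treated KO cells and Fgr in both WT groups. These 2 of 7 compare with 1.43% of all genes called with a larger response in KO cells, and 0 of 7 with 1.86% called with a smaller one. The difference for Syk was 0.60 (95% CI -0.42 to 1.63, adjusted p = 0.557), so a different response of Syk was not detectable with these arrays. Fyn (0.52), Yes1 (0.60), Btk (-0.23) and Csk (-0.71, adjusted p = 0.287) also did not pass. These comparisons share their control arrays and are not independent of each other.

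For each kinase gene above the negative controls that spanned over 2-fold between arrays, the genes with the nearest pattern were sought among 6707 genes. Likeness is the root mean square distance between log2 signals centred over the 6 arrays. The nearest genes to Src were Gadd45b, a stress-induced gene (distance 0.50), and Phlda1 (0.54). Gadd45b had signals of 12.89 and 12.32 on the treated KO arrays and was dim on the others, as Src was. The nearest to Fgr were Slfn2, a Schlafen family gene (0.28), and Bcl2a1d, an antiapoptotic BCL2 family gene (0.28) whose near-identical copies may share its probes. Slfn2 had signals of 15.81 and 15.68 in the treated clones, against 12.14 in treated WT cells. The nearest to Syk were Spata13, a guanine nucleotide exchange factor gene (0.09), and Clcn5, an endosomal chloride transporter gene (0.13). As these genes were picked out of 6707 for their likeness over 6 arrays, the distances are a description only.

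**Figure D3:**
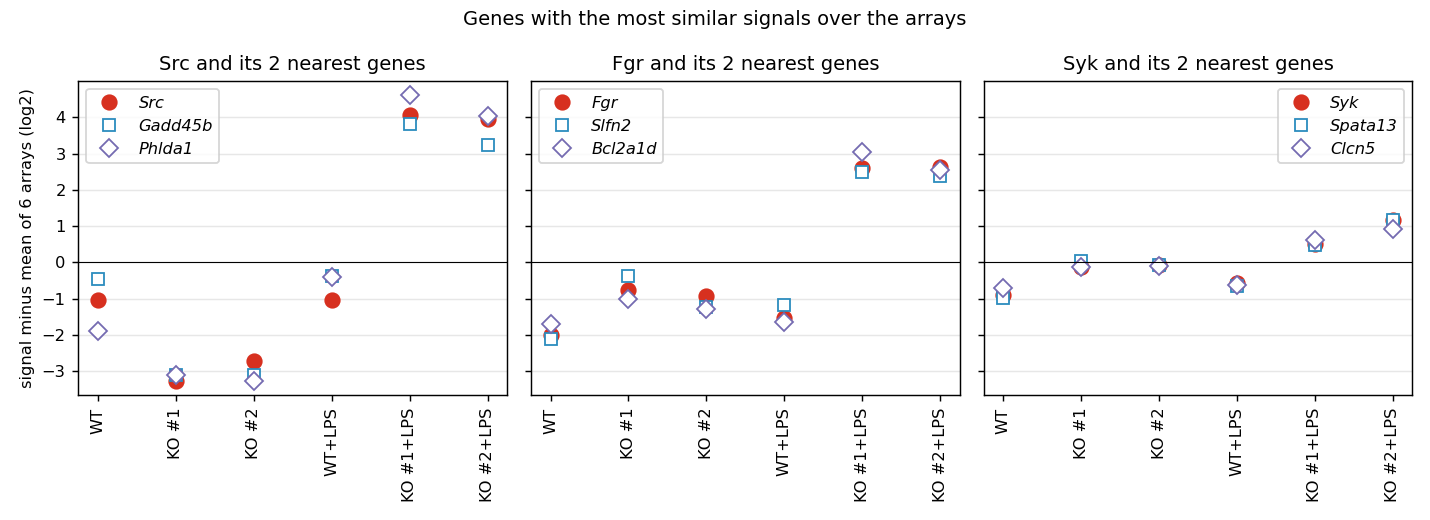
Log2 signals minus the mean of the 6 arrays (y axis) on each array (x axis), for Src, Fgr and Syk (red) and the 2 genes nearest to each. Src, Gadd45b and Phlda1 are high only on the 2 KO arrays with LPS, while Syk, Spata13 and Clcn5 are highest in treated clone #2.

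The genes around these kinases were read from 4 lists. The other SRC-like, SYK-like and TEC kinases were mostly dim: 8 of 9 measured were dim on all arrays, and only Tec, with signals of 10.42 to 11.25, was above the negative controls. With LPS, 0 were called higher and 1 lower in KO cells (4.62% and 6.66% of all genes), with a median difference of 0.09. The 1 was Txk, a TEC family kinase of T cells that was dim in both genotypes (difference -2.21, adjusted p = 0.00193). In untreated cells 0 were called higher and 1 lower (2.16% and 2.14% of all genes), again Txk. Its untreated signals, all dim, were 8.76 in WT cells and 6.92 and 6.81 in the clones.

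Among receptors and adaptors that recruit SRC family kinases or SYK, 8 of 24 measured were called higher and 0 lower in KO cells with LPS (4.62% and 6.66% of all genes), with a median difference of 0.81 against 0.00 over all genes. The list mixes activating and inhibitory receptors, and Lilrb4a and Cd300a, among the 8, encode inhibitory receptors. The count therefore gives no direction of signaling. Clec4n (dectin-2, a receptor for fungal mannans that signals through FcRγ) had signals of 7.75, 13.27 and 13.27 in WT cells, clone #1 and clone #2 before treatment and of 7.85, 11.76 and 12.91 after LPS. All 4 KO arrays stood apart from the dim WT arrays, and with LPS the KO cells were at least 9.33-fold higher (4.49, SE 0.45, adjusted p = 0.00323). Clec4e (Mincle, also coupled to FcRγ) was 2.19 higher (signals 14.89 in WT, 16.98 and 17.18 in the treated clones, adjusted p = 0.00251). Trem2, which signals through DAP12, was 1.60 higher (11.66, then 13.09 and 13.42, adjusted p = 0.00930). Its difference was already present before LPS, with untreated signals of 12.10 in WT cells and 14.66 and 14.81 in the clones. In KO cells Trem2 was called lower with LPS.

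In untreated cells, 11 of the 24 receptor and adaptor genes were called higher in KO cells and 0 lower (2.16% and 2.14% of all genes). The median difference was 0.93, against 0.03 over all genes. Among the 11 were Tyrobp, which encodes DAP12, and the inhibitory receptor genes Sirpa, Lilrb4a and Cd300a. In KO cells LPS raised 5 and lowered 7 of the list (6.84% and 9.8% of all genes), and with the clone as a replicate block 8 and 7. The responses of 0 genes of the list were called larger in KO than in WT cells and 1 smaller (1.43% and 1.86% of all genes). The 1 was that of Tlr4, the LPS receptor, with a difference of -2.62 (SE 0.28, adjusted p = 0.0129). Before treatment its signals in WT cells, clone #1 and clone #2 were 9.80, 12.92 and 13.09, and after LPS 9.47, 9.97 and 10.13. Untreated KO cells thus had more Tlr4 mRNA than any other culture, by 3.20 over WT cells (adjusted p = 0.00206), and its part in the Src and Fgr responses was not tested.

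Among phosphatases, scaffolds and ligases that restrain these kinases, 8 of 23 were called higher and 0 lower in KO cells with LPS (4.62% and 6.66% of all genes; median 0.21). Ptpre had the largest difference, with LPS signals of 9.07 (WT), 13.25 (clone #1) and 13.01 (clone #2), at least 16.2-fold (4.06, SE 0.28, adjusted p = 0.00120). In untreated cells its signals were 8.77 in WT and 9.99 and 10.54 in the clones. The phosphatase it encodes does not only restrain, as it removes the inhibitory phosphate of SRC, and the same is known of the products of Ptprj and Ptprc, also among the 8. Sla, an adaptor gene that lowers receptor levels, was at least 1.34-fold higher (7.56 in WT, 9.38 and 9.69 in the clones with LPS, adjusted p = 0.00889). That fold uses the mean of the treated clones, of which clone #1 was itself narrowly dim. Untreated Sla signals were 7.27 in WT and 10.48 and 10.01 in the clones, so this difference was also present before LPS. Socs1, a brake on cytokine signaling, was dim in both (4.79, then 8.62 and 6.91, adjusted p = 0.0400) and not called without either untreated KO array (adjusted p = 0.0850). Without LPS 4 of the 23 were higher and 0 lower (2.16% and 2.14% of all genes), and LPS in KO cells raised 5 and lowered 4 (6.84% and 9.8%). The responses of 2 were called larger in KO than in WT cells and 0 smaller (1.43% and 1.86% of all genes). They were those of Ptpre (2.57, adjusted p = 0.0341) and Ptprj (1.67, adjusted p = 0.0401). Ptpre was dim on both WT arrays, so the size of its difference is uncertain. With the clone as a replicate block 1 gene was called lower with LPS, Ptpn6, which encodes the phosphatase SHP-1 (-1.22, adjusted p = 0.0558 without the block and 0.0250 with it).

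Among substrates and effectors, 11 of 32 were called higher and 3 lower in KO cells with LPS (4.62% and 6.66% of all genes; median 0.24). Of these 14, Bcl10, which is among the 11, and Bcar1 and Vav2 were dim in both genotypes. In untreated cells 0 were called higher and 1 lower (2.16% and 2.14% of all genes), Bcar1, also dim in both. Malt1, the protease of the CARD9-BCL10-MALT1 complex, went from signals of 9.76, 9.12 and 9.01 in WT cells, clone #1 and clone #2 without LPS to 10.07, 13.65 and 13.72 with it. It was dim in untreated KO cells and highest in the same cells with LPS, where it exceeded WT cells 12.3-fold (3.62, SE 0.19, adjusted p = 0.000747). Lcp2 (SLP-76, an adaptor that SYK phosphorylates) was 2.38 higher (12.93, then 15.32 and 15.29, adjusted p = 0.00285). Prkcd, whose product phosphorylates CARD9, was 1.83 higher (13.76, then 15.69 and 15.48, adjusted p = 0.00422). LPS raised 11 and lowered 4 of the list in KO cells (6.84% and 9.8% of all genes). The responses of 3 effectors were called larger in KO than in WT cells and 0 smaller (1.43% and 1.86% of all genes). They were those of Lcp2 (by 2.17), Pik3r5 (by 1.56) and Malt1. No size is given for Malt1, which was dim in untreated KO cells.

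The 3 lower effectors were Bcar1, Vav1 and Vav2. Vav1, which encodes a guanine nucleotide exchange factor of blood cells, had LPS signals of 12.26 (WT), 11.08 (clone #1) and 11.36 (clone #2; difference -1.04, SE 0.22, adjusted p = 0.0354). It was not called without any 1 of the untreated KO arrays (adjusted p = 0.0741) or without treated clone #1 (adjusted p = 0.0869). Bcar1 (p130Cas, an SRC substrate in adhesion; -2.42, adjusted p = 0.00407) and Vav2 (-0.96, adjusted p = 0.0305) were dim in both genotypes, and Vav2 was not called without either untreated KO array (adjusted p = 0.0749) or without treated clone #2 (adjusted p = 0.0662). The lists were written with earlier results of these data known, so their counts are a description, and 2201 of all 19505 genes were called in either direction with LPS.

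**Figure D4:**
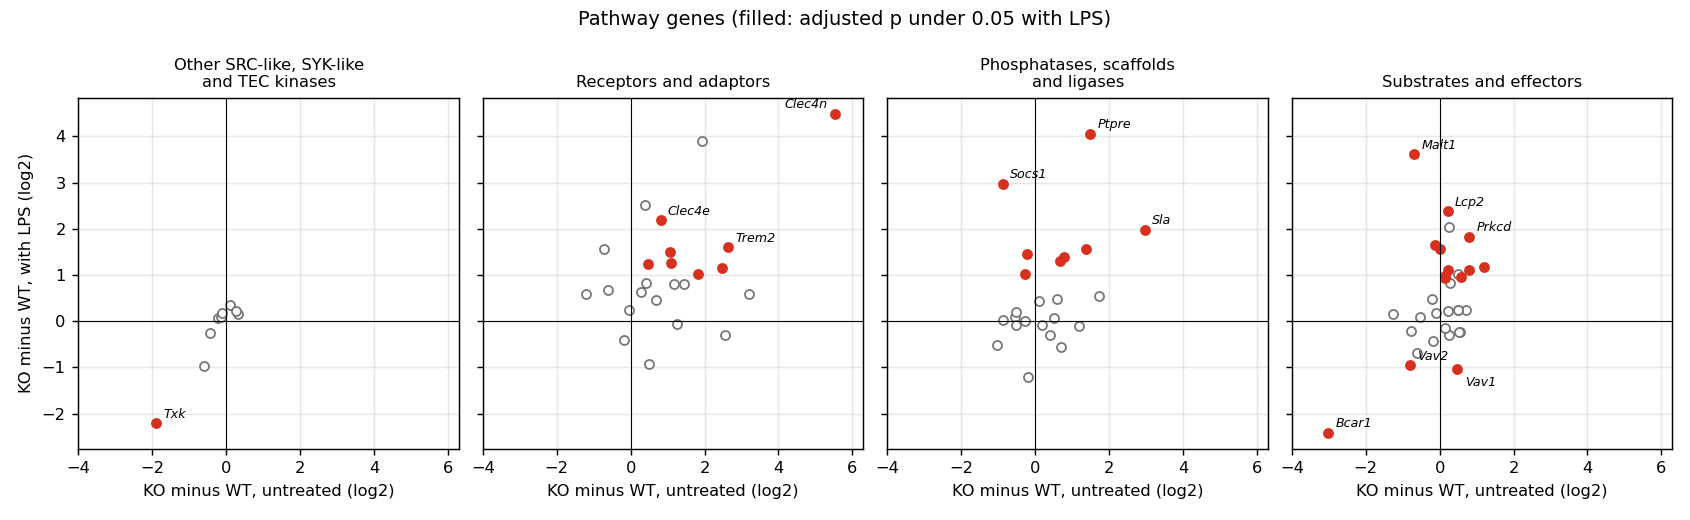
Differences between KO and WT cells without LPS (x axis) and with LPS (y axis), both log2, for the measured genes of the 4 lists; filled points passed an adjusted p of 0.05 with LPS, and the named genes are labelled. Lcp2 lies near 0 on the x axis (0.21) and above 2 on the y axis, whereas Clec4n is high on both; Txk, Socs1, Bcar1 and Vav2 are dim in both genotypes with LPS.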

How the data were processed

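Total RNA of 6 RAW-D cultures was hybridized to mouse Clariom S arrays, and the labels gave each sample its genotype and treatment. Per the labels, the authors made the deposited log2 values with RMA in Expression Console (version not given in the sources used here). A gene-level summary is named for untreated WT cells and an exon-level one for the other 5 arrays. All 6 columns were used (0 of other samples). Of 28846 values per array, 19572 belonged to probe sets with a symbol, and the probe set with the highest mean was kept for each of 19505 genes. The number of arrays limits the precision.

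The tests used limma 3.58.1 (R 4.3.3), fitting 1 mean for each group on 2 residual degrees of freedom (3.83 prior), with Benjamini-Hochberg adjustment. Numbers pair the samples, since each number names 1 clone in both treatments (correlation of deviations across genes 0.222), so the clone was also tried as a replicate block. Further alternatives left out each KO array or changed the normalization, the filter, the moderation and the threshold. The steps were tested on simulated data. Named are the 9 kinases and, per list, up to 3 genes with the largest called differences in each direction with LPS. Other names (Cxcl2, Acod1, Tlr4, Tyrobp, Sirpa, Lilrb4a, Cd300a, Ptprj, Ptprc, Ptpn6, Bcl10, Pik3r5 and Tec) were picked with their values known. The kinases, lists and tests were chosen with earlier results of these data known. Promoters came from a RefSeq table, and the scanned images were not used.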

Additional observations from a re-analysis of the deposited data

Results flagged for a closer look

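The LPS response of 2 kinase genes differed between the genotypes by limma's test of the difference itself. That of Src was larger in KO cells than in WT cells by 6.99 on the log2 scale, with 7.32 and 6.66 in clones #1 and #2 and 0.00 in WT cells. That of Fgr was larger by 2.998, with 3.38 and 3.57 in the clones and 0.47 in WT cells. Both are differences of signals as measured. Src was dim on 4 of the 6 arrays, so its rise in KO cells is known only as at least 9.15-fold, and Fgr was dim on both WT arrays. Both differences were called under all 10 alternatives, with adjusted p from 0.000413 to 0.0127 for Src and from 0.00321 to 0.0457 for Fgr. The WT response rests on 1 array per treatment.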

How the results depend on the processing

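Of the differences of kinase genes under the alternatives, 336 kept direction and call, 11 lost their call, 7 gained one and 5 changed sign. The changes of sign were of values near 0 that were never called: for KO against WT with LPS, Fyn was -0.0260 with median centring and -0.23 to 0.23 with 1 treated KO array left out, Yes1 -0.0646 to 0.17 and Btk -0.0394 to 0.20, and Yes1 for LPS in KO cells was -0.0367 to 0.20. Src and Fgr with LPS, in KO against WT and in KO cells, were called throughout. Of KO against WT untreated, 2 kinase genes were called, and 0 to 2 with 1 KO array left out. With the clone as a replicate block, 4 kinase genes instead of 3 were called for LPS in KO cells (Syk, adjusted p = 0.0218, called under 7 of the 10 alternatives), and the block changed no other call of a kinase gene. For the lists, the block moved receptor and adaptor genes with a different response from 0 larger and 1 smaller to 1 and 2, effectors in untreated cells from 0 higher and 1 lower to 1 and 2, and other kinases with LPS in KO cells from 0 to 1 lower; every other total of calls in a list, both directions together, stayed within 1.5 times. Over all genes, KO against WT untreated gave 840 calls, with 1339 under the block, 1270 with an intensity trend, 1473 over 2-fold without a test, and 214 and 222 without untreated clone #1 and #2. LPS in KO cells gave 3246, with 1536 and 1485 without these arrays. The difference of responses gave 641, with 1078 under the block, 162 and 185 without untreated clone #1 and #2, 1175 without treated clone #2 and 2439 over 2-fold. LPS in WT cells gave 0, with 1 under the trend and 144 over 2-fold. The causes were not tested. Leaving out an array leaves fewer degrees of freedom, and the WT arrays, 1 per group, could not be left out. Averaging probe sets changed nothing for the kinases, which have 1 each. With a floor at the 99th instead of the 95th percentile of negative controls (12.9 to 13.2), 4 kinase genes instead of 1 would be dim on all arrays (Src, Fyn, Yes1 and Syk). The folds written as at least N-fold depend on this choice. They were computed at the 95th percentile, and for Src none would remain at the 99th.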
